A study of Mus musculus and Rattus norvegicus with 80 samples.

Results

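Short non-intact L1 loci were taken as the mouse elements on the non-intact full-length list whose annotated core was under 4800 bp long, each core once, without cores that also stood on the OR2F list of the same files. This rule gave 1800 of 17019 distinct mouse loci, or 10.6%. Of the 1824 entries under 4800 bp, 24 were left out, and 23 short cores were also on the OR2F list. The 1800 short loci made up 13.2% of the 13671 loci that were on the non-intact list alone. In every library compared here, reads were counted in a window of the core plus 700 bp on its 5′ side and 1000 bp on its 3′ side, and only in the orientation of the L1.

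Cytoplasmic, polyadenylated RNA of organs from untreated C57BL/6 mice was measured by strand-specific paired-end sequencing of small tissue pieces. From 9 males came 3 testes and 3 livers each at 1.9-3.6, 7.6 and 22.3 mo, with 3 brains and 2 lungs at 7.6 mo. Ovaries, brains and lungs came from 9 females, 3 of them aged 2.2-3.2 mo, 4 aged 8-8.7 mo and 2 aged 16.5 mo, with uteri of 1, 3 and 2 of these. Libraries of 12.8 mo males are described apart, because their windows were shorter. Replicates are different mice, and the organs of a mouse number come from the same mouse. Expression of genes, and with it the markers of each organ, was not analysed here.

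L1 is a retrotransposon that still moves in the mouse genome. A full-length copy carries a promoter made of repeated monomers, open reading frames for an RNA-binding protein and for a protein with endonuclease and reverse transcriptase, and a polyadenylation signal. Non-intact copies have mutated reading frames. RNA over such a copy can start at its own promoter or be part of a transcript of a neighbouring or surrounding gene, and the germ line is a tissue in which L1 RNA is well known.

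Most reads on short loci were counted in 4 windows that also hold, beside the core, a processed pseudogene of the same strand, the reverse-transcribed copy of the mRNA of another gene. The files give reads per window and not their place within it. The stretches here show how near these pseudogenes are to their parent mRNAs. They are transcript sequences of GENCODE release M21 on GRCm38 (mm10), each 120 bases long, with capitals at bases that differ from the parent mRNA or face a gap in it. The parent is Glrx3 (a glutaredoxin) for Gm12669 (chr4:91805755-91805874, minus strand, window of UID-13571) and Gapdh (the glycolytic enzyme) for Gm5559 (chr5:95862038-95862157, plus strand, window of UID-5687). It is Rps25 for Gm6988 (chr12:110316207-110316326, plus strand, window of UID-10972) and Rps7 for AC121967.1 (chr19:9216613-9216732, plus strand, window of UID-11251), both of them proteins of the small ribosomal subunit. All 4 stretches align within the coding sequence of the parent.
Gm12669: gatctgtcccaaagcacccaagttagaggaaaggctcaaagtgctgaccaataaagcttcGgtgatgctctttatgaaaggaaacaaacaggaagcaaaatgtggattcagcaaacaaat
Gm5559: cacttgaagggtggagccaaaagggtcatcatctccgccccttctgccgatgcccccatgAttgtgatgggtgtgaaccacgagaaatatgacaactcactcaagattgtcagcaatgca
Gm6988: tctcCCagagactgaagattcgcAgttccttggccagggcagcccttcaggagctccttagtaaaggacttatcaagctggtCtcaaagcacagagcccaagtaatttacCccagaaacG
AC121967.1: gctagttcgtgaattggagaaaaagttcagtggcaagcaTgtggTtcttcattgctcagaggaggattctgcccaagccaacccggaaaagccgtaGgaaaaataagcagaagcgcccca

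Within the counting windows, 2 of the 543 aligned bases of Gm12669 differed from Glrx3, 1 of 969 of Gm5559 from Gapdh, 9 of 375 of Gm6988 from Rps25 and 8 of 580 of AC121967.1 from Rps7. A stretch of the locus UID-11465 is shown as a case of another kind. It lies inside the exon of Kcnq1ot1 (chr7:143203458-143296549, minus strand), the long non-coding RNA of an imprinted domain, so that transcript and L1 cannot be separated by position. Capitals mark the 90 bases at the 5′ end of its core, and the 30 lower-case bases are the flank before it (chr7:143220273-143220392, minus strand).
UID-11465: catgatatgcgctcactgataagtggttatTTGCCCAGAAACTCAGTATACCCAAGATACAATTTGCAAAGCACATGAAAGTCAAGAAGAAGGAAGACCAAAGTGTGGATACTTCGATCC

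Mapped reads ranged from 8.45 to 51.39 M per library, and levels are given as RPM, reads per M mapped reads, or as RPKM, which is RPM per kb of counting window. No 2 replicates were close enough to be the same library (chi-square per degree of freedom of 2.97 to 59.1 over 56 replicate pairs). The brain of mouse 1325 stood apart at 8-8.7 mo. Values without it are given for UID-5687 and for the calls of ovaries against brains, while other means of these brains include it. Values after ± are SDs between mice, and each SE comes from the edgeR fit, which includes the spread between mice. Floors below cover counting error only.

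Core length need not be the length of the whole L1. In the study's view of the annotated loci, the thick part of each marks the open reading frame. Intact loci had a median core of 4999 bp. A short core therefore does not by itself show a truncated element. The flanks of a window may hold L1 sequence too, which was not measured. Although listed as full-length, the short loci had cores of very different lengths. Their cores ranged from 161 to 4799 bp, with a median of 4482.5 bp and quartiles of 4006.5 and 4678 bp, while the non-intact loci of 4800 to 5100 bp had a median of 4993 bp. In 649 loci the core had 4600 bp or more and in 434 it had 4400 to under 4600 bp, whereas 93 cores were shorter than 1000 bp. The shortest were UID-76 with 161 bp (chr2:43063373-43063533, 0 reads), UID-3396 with 352 bp (chrX:39789272-39789623, at most 4 reads in a library) and UID-1328 with 370 bp (chr9:19860898-19861267, 0 reads). Just inside the limit, UID-1908 (chr15:46898124-46902922) and UID-4617 (chrX:86792800-86797598) with 4799 bp had no read in any library. Just outside it, at 4800 bp, UID-7443 (chr13:89264156-89268955) reached 10 reads and UID-6909 (chr14:77355180-77359979) had none.

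**Figure D1:**
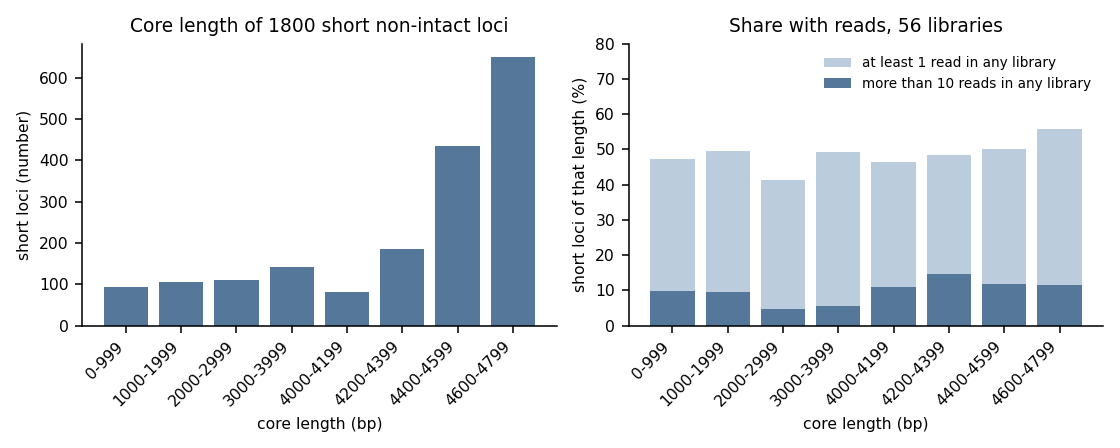
The left panel gives the number of short loci in each class of core length in bp, and the right panel the percentage of each class with at least 1 read and with more than 10 reads in any of 56 libraries. The share with a read stays between 41.3% and 55.9% from the shortest to the longest class.

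Short loci lay on the minus strand in 60.1% of cases, against 53.2% of all loci, and on chromosome X in 284 cases (15.8%, against 11.4%). Chromosome Y held 19 of them (1.06%, against 3.84% of all loci). A gene of the same strand overlapped the core of 130 short loci (7.22%, against 9.16% of all loci), a gene of the other strand only that of 316 (17.6%, against 15.8%), and 1354 (75.2%, against 75.0%) were outside annotated genes. Loci overlapped in this way are given below as in or within the gene. An exon of the same strand reached the window of 42 short loci (2.33%, against 1.83%) and the core of 18. A processed pseudogene of the same strand reached the window of 18 (1.00%, against 0.764%).

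Some short cores stood next to another listed core. Those of 203 short loci directly abutted the core of another listed locus, in 197 pairs, of which 7 joined 2 short loci, and these had a median core of 1618 bp. Whether abutting cores belong to 1 insertion was not tested. Windows that overlapped the window of another locus were found for 223 short loci (12.4%), against 2.06% of the non-intact loci of 4800 to 5100 bp. Reads in such overlaps are counted at both loci. Short loci with such windows held 0.03% to 2.97% of the reads on short loci per library, counting all their reads in and out of the overlap.

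Over the 56 libraries, 920 short loci (51.1%) had at least 1 read, 880 (48.9%) had none, and 194 (10.8%) had more than 10 reads in some library. The shares were 62.8% and 11.6% for longer non-intact loci, and 48.9% and 2.15% for intact loci. Location went with these shares. In a gene of the same strand, 80.0% of the 130 short loci had a read and 41.5% had more than 10, against 50.7% and 8.49% of those outside genes and 41.1% and 7.91% of those in a gene of the other strand only. On chromosome X, 29.6% had a read, and on Y 2 of 19 did, against 55.7% on autosomes. Differences between such classes are descriptions, since alignment to a single place in the genome is required and the share of each locus that can be aligned that way was not measured here.

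Of the 200 short loci of chromosome X without a read, 76 lay between 24 and 36 Mb. That interval held 80 short loci in all, of which 4 (5.00%) had a read, while 22 of its 171 longer non-intact loci (12.9%) did, and no locus of either class had more than 10 reads in a library. It also held 34 short loci with a core of 4443 to 4446 bp, 24 of them of exactly 4446 bp (chrX:24567718-35411360 from the first to the last). All but 1 of the 34 overlapped an annotated gene of the other strand, either a protein-coding gene or an unprocessed pseudogene. The protein-coding ones include Slx, a multicopy gene expressed in spermatids. None of the 34 had a read in any of 56 libraries, testes included. How much of these copies can be aligned to a single place was not tested.

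Short loci with at least 1 read numbered 355, 315 and 242 in the 3 testes of 7.6 mo. In livers of the same age they numbered 26, 30 and 22, in brains 106, 73 and 68, and in the 2 lungs 32 and 34. Each testis thus had more short loci with reads than any liver, brain or lung. In females of 8-8.7 mo the numbers were 115, 68, 83 and 100 in ovaries, 66, 25 and 45 in uteri, 107, 64, 87 and 62 in brains, and 54, 45, 59 and 51 in lungs. Ovaries and brains overlapped, and each ovary was above every lung and every uterus of that age. As a share of the list, short loci with reads were below longer non-intact loci in each of these testes. The shares were 19.7%, 17.5% and 13.4% against 23.2%, 21.6% and 16.2%. In livers they went either way, with 1.44%, 1.67% and 1.22% against 1.52%, 1.63% and 1.10%.

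Across ages, testes had 294, 341 and 296 short loci with reads at 1.9-3.6 mo and 289, 321 and 296 at 22.3 mo, within the range of 7.6 mo testes. Livers had 19 to 27 at 1.9-3.6 mo and 31 to 37 at 22.3 mo. Ovaries had 47 to 80 at 2.2-3.2 mo and 104 and 107 at 16.5 mo, and female brains 52 to 80 at 2.2-3.2 mo and 128 and 129 at 16.5 mo. Female lungs had 27 to 62 and then 45 and 50. As mean shares, short loci went from 3.22% to 5.86% in ovaries and from 3.93% to 7.14% in female brains. Longer non-intact loci went from 3.01% to 6.34% and from 4.02% to 7.08%. In livers, short loci went from 1.35% to 1.89% and longer ones from 1.24% to 1.88%. These rises were thus not particular to short loci. The 2.2-3.2 mo ovaries spanned 11.69 to 41.03 M mapped reads, the 16.5 mo ovaries 32.14 and 35.21 M, and the part of depth in these numbers was not tested. Fewer cells of a type and less RNA per cell cannot be told apart in bulk organs.

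**Figure D2:**
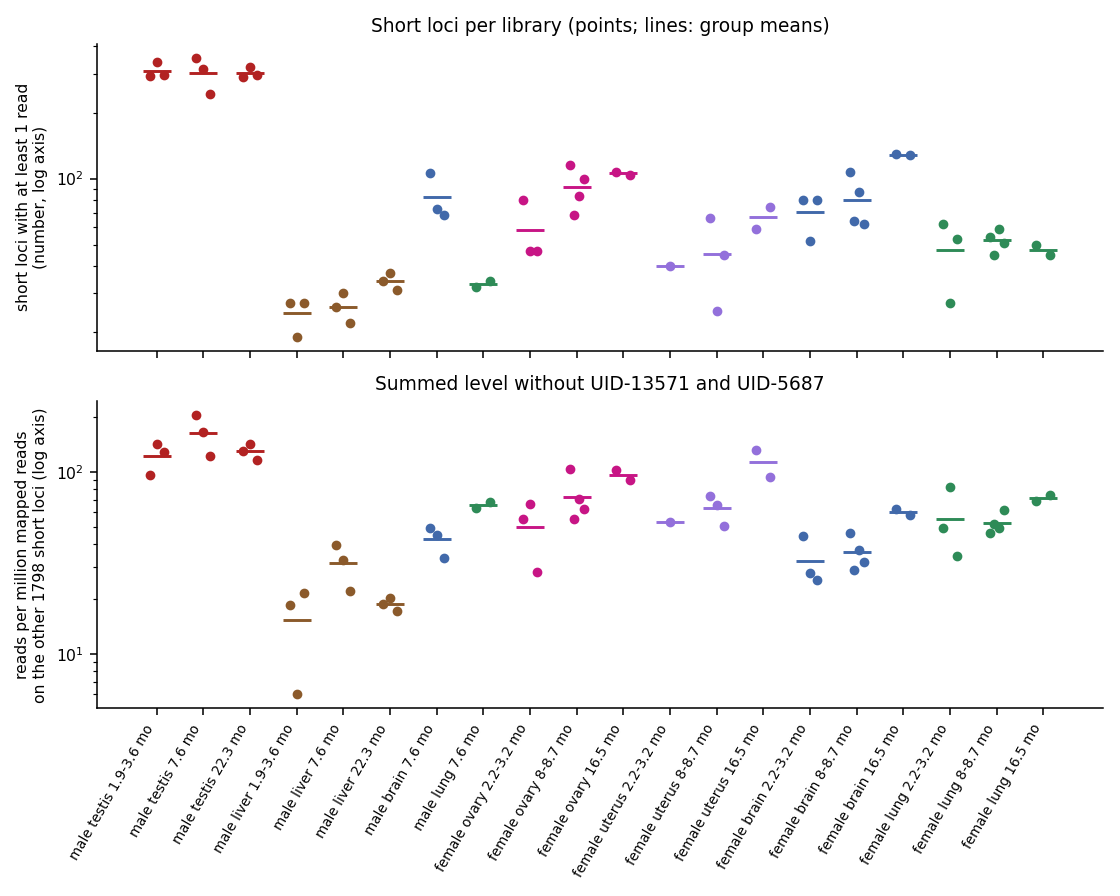
The upper panel shows the number of short loci with at least 1 read in each library (points, log axis) by organ and age, with lines at group means. The lower panel shows the summed RPM (reads per M mapped reads) without UID-13571 and UID-5687 (log axis), with 204, 164 and 122 in 7.6 mo testes and 39.6, 32.7 and 22.0 in livers.

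The reads themselves were held by very few short loci. UID-13571 and UID-5687 took 492319 of 607635 reads on short loci (81.0%), with 56.5% to 96.1% in single libraries. With UID-10972 and UID-11251 the share was 84.6% (60.8% to 97.1%), and all 18 short loci with a processed pseudogene in the window held 84.8%. The summed level of short loci was 645 ± 65.9 RPM (SD, n = 3) in 7.6 mo testes and 476 ± 27.2 (n = 3) in livers. Without UID-13571 and UID-5687 it was 164 ± 40.9 in testes and 31.5 ± 8.84 in livers, 42.6 ± 8.20 in brains (n = 3) and 65.6 ± 3.44 in lungs (n = 2). In 8-8.7 mo females the remaining level was 73.1 ± 21.4 in ovaries (n = 4), 63.1 ± 11.6 in uteri (n = 3), 36.1 ± 7.68 in brains (n = 4) and 52.1 ± 6.88 in lungs (n = 4).

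UID-13571 (chr4:91800660-91805389, minus strand, outside genes) had reads in all 56 libraries, from 823 to 21517. The 7.6 mo testes had 17273, 17028 and 12637 reads, the livers 3345, 4341 and 2955, the brains 5853, 4482 and 4004 and the lungs 6419 and 5307. Every testis was above every other male organ, at 73.0 ± 6.13 RPKM (SD, n = 3) against 26.2 ± 1.84 in livers and 50.6 ± 3.45 (n = 2) in lungs. The window was covered to a fraction of 0.112 to 0.148 in all libraries, although every library had at least 823 reads there. The pseudogene Gm12669 (chr4:91805547-91806555, 99.1% identical to Glrx3 over 1014 bp) takes up 543 bp of the window, 8.44% of it, all on the 5′ side of the core. In the edgeR quasi-likelihood test, UID-13571 was higher in testes than in livers by 1.48 on the log2 scale (SE 0.141, adjusted p = 8.38e-24), but by -0.04 (adjusted p = 0.899) with TMM scaling of total L1 reads. It was also called higher than in lungs, but that call was lost in 2 of 11 alternatives. These were the mouse as block (0.58, adjusted p = 0.185) and no filter on reads (0.53, adjusted p = 0.381).

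UID-5687 (chr5:95857387-95861682, plus strand, outside genes) was lowest in testes among male organs of 7.6 mo. Testes had 1.99 RPKM, against 46.0 ± 2.44 (SD, n = 3) in livers, 42.6 in brains and 34.0 in lungs. Its 7.6 mo testes had 498, 372 and 330 reads, its livers 5576, 6984 and 4838, its brains 12008, 8718 and 7690, and its lungs 3078 and 4188. No testis came near any other male organ, and the log2 fold change of testes was -4.53 against livers (SE 0.196, adjusted p = 1.65e-101), -4.42 against brains and -4.09 against lungs. In females of 8-8.7 mo the locus had 1170, 4412, 1558 and 998 reads in brains and 564, 467, 753 and 504 in lungs. Levels were 42.6 ± 2.89 RPKM (n = 3) in male brains of 7.6 mo and 9.22 ± 6.69 (n = 4) in female brains of 8-8.7 mo, or 5.94 ± 1.65 (n = 3) without the brain of mouse 1325, and 34.0 ± 9.53 (n = 2) against 3.50 ± 0.714 (n = 4) in lungs. Sex and age differ together between these groups and the sequencing platform of each library is not given, so that these cannot be told apart, and no test was made. Gm5559 (chr5:95861714-95862715, 99.9% identical to Gapdh over 1002 bp) fills 969 bp on the 3′ side of the window, and coverage was 0.0542 to 0.153.

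UID-10972 (chr12:110312574-110315387, plus strand, core 2814 bp) lies 5′ of Gm6988, which is 97.6% identical to Rps25. Uteri of 8-8.7 mo had 276, 460 and 268 reads, lungs 166, 446, 348 and 446, and ovaries 152, 368, 366 and 220, whereas the male testes of 7.6 mo had 58, 38 and 30. UID-11251 (chr19:9217025-9221428, plus strand, within the gene Gm9750) lies 3′ of AC121967.1, 98.6% identical to Rps7, and had 44 to 444 reads in all libraries. In lungs of 7.6 mo males its 396 and 428 reads covered 0.0832 to 0.128 of the window. In brains of the same males 236, 188 and 140 reads covered 0.255 to 0.572. Fewer reads thus covered more of the window in brains. The pseudogene takes up 9.50% of that window. The study itself classed UID-13571 as background L1 sequence, because its large pile of reads did not follow the mappability of the locus. Whether reads at these 4 loci came from the pseudogene, from the parent gene or from the L1 was not tested here.

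The 12 libraries of 12.8 mo males give the same loci a shorter window, the core plus 800 bp in place of 1700 bp, and all 1800 short loci could be matched there. UID-10972 kept 0 bp of Gm6988 and had 0 reads in all 12 libraries. UID-5687 kept 469 of its 969 bp of Gm5559 and had 0 to 2 reads. UID-11251 kept 236 bp of AC121967.1 and had 0 to 55 reads. UID-13571 kept 143 bp of Gm12669 and still had 1626 to 7609 reads. Of 12.8 mo testes 279, 155 and 308 short loci had reads, and of livers 18, 27 and 28. Age, window and processing cannot be told apart in these libraries, and no test was made.

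**Figure D3:**
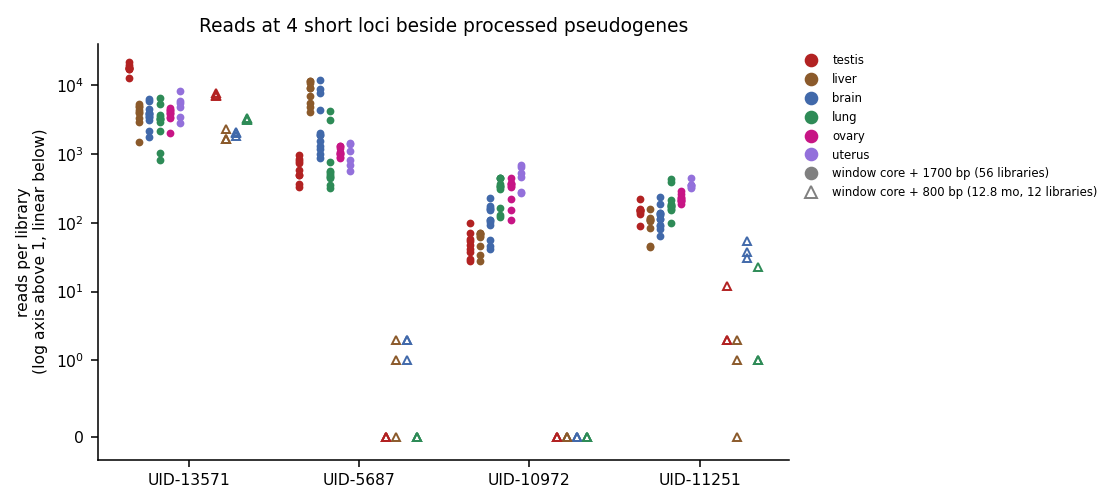
Reads per library (log axis above 1) at the 4 short loci next to processed pseudogenes, coloured by organ, for the window of core plus 1700 bp (filled points, 56 libraries) and core plus 800 bp (open triangles, 12 libraries of 12.8 mo). UID-10972 has 28 or more reads in each library with the longer window and 0 with the shorter one, and UID-5687 has 324 or more against 0 to 2.

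In the other direction, a part of the short loci had reads along much of the window. In 7.6 mo testes, 48 short loci had more than 10 reads in every library. Their median coverage was 0.357, and 16 of them had a coverage over 0.5, against a median of 0.301 for 330 longer non-intact loci. The median was 0.124 in livers (8 loci), 0.398 in male brains (11), 0.114 in male lungs (9), 0.491 in ovaries (13), 0.563 in uteri (9), 0.495 in female brains (10) and 0.348 in female lungs (10). Coverage grows with reads, so that these medians are no order of organs.

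**Figure D4:**
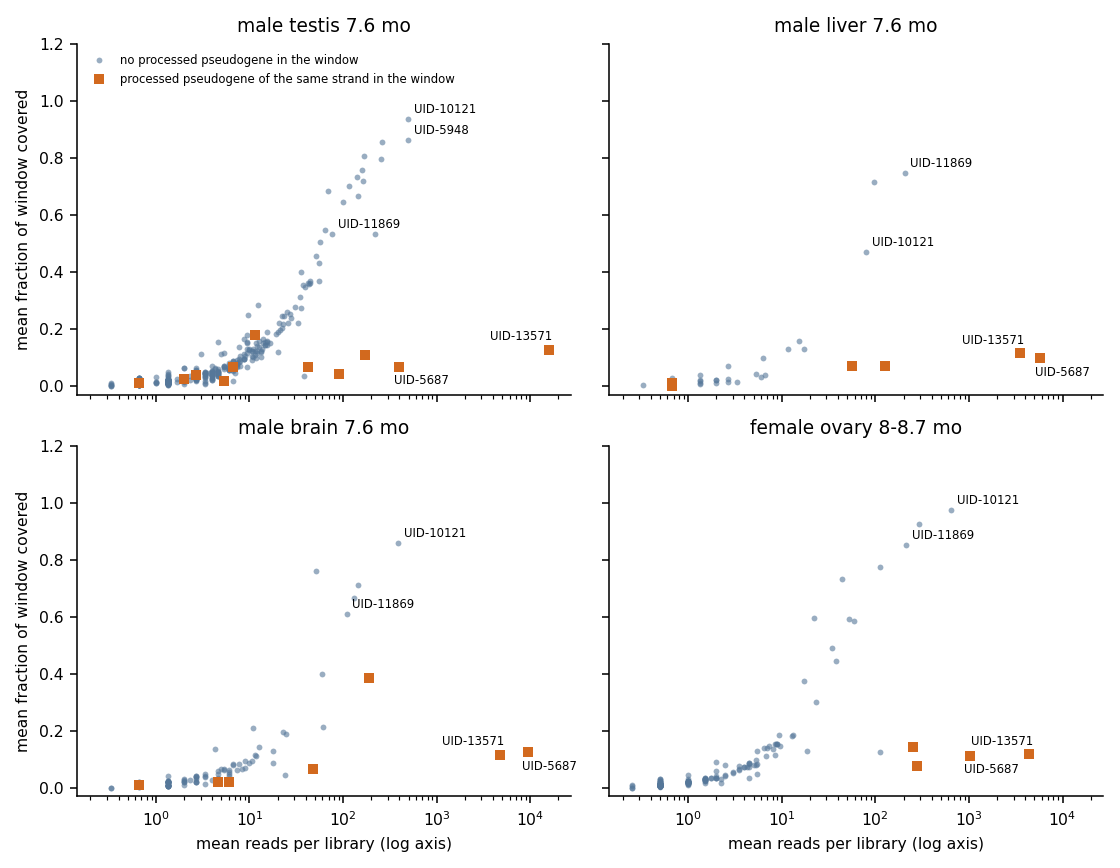
Mean reads per library (log axis) against the mean fraction of the counting window covered, for each short locus with reads in 4 groups; orange squares have a processed pseudogene of the same strand in the window. UID-13571 and UID-5687 have the most reads in livers, brains and ovaries at a coverage of 0.0985 to 0.126, whereas UID-10121 and UID-5948 reach 0.937 and 0.865 in testes.

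Few short loci were present in many organs. Counting 8 organ groups (males of 7.6 mo and females of 8-8.7 mo), 1744 short loci had more than 10 reads in every library of none of them and 43 of 1 group alone. Of the 48 short loci that did so in testes, 37 did so in no other group and 22 had no read in any other group. Only UID-13571, UID-5687, UID-10972, UID-11251, UID-10121 and UID-11869 did so in all 8 groups. The first 4 of these lie beside the processed pseudogenes. The groups per locus were not counted for longer non-intact loci or all loci, so these numbers cannot be read as particular to short loci. Longer non-intact loci with more than 10 reads in every library numbered 330 in testes, 20 in livers, 56 in male brains and 47 in ovaries. For short loci the numbers were 48, 8, 11 and 13.

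UID-10121 (chr10:33922599-33926986, minus strand) lies within Zup1, a deubiquitinase, with an exon of that gene in its core. Testes of 7.6 mo had 634, 509 and 340 reads, brains 512, 418 and 240, lungs 206 and 72, and livers 112, 80 and 46. The livers were below all testes and brains, and testes were higher than livers by 1.96 on the log2 scale (SE 0.348, adjusted p = 2.23e-08). With TMM scaling that difference was 0.46 (adjusted p = 0.138). In ovaries of 8-8.7 mo 1119, 340, 502 and 603 reads covered 0.953 to 0.993 of the window. UID-11869 (chr7:114542105-114546764, minus strand) lies outside annotated genes and has no processed pseudogene of its strand in the window. It had 296, 210 and 111 reads in livers and 111, 78 and 42 in testes of 7.6 mo, and in 8-8.7 mo ovaries 390, 100, 184 and 176. Testes were lower than livers by -2.10 on the log2 scale (SE 0.384, adjusted p = 6.08e-08).

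Testes of 7.6 mo were then compared with the other organs of males of that age, to ask which short loci had more RNA in the testis. Since p-values were adjusted over all loci tested, and since a locus was tested only if the number of libraries with 10 or more reads reached the size of the smaller group, the counts cover the short loci that passed. Over 8 comparisons 112 short loci did so and 1688 did not, and a locus high in 1 group alone could pass by that group. Against livers, 55 short loci were tested, 47 were higher in testes and 6 lower (edgeR, adjusted p under 0.05). That is 85.5% and 10.9%, beside 92.3% higher and 5.49% lower among all 455 loci tested. Against brains, 44 of 58 were higher and 6 lower (75.9% and 10.3%, beside 82.9% and 9.30% of 484 loci). Against lungs, 72 of 86 were higher and 7 lower (83.7% and 8.14%, beside 87.8% and 5.35% of 729 loci). The median log2 fold change of short loci was 7.19, 7.07 and 6.51, near those of all loci tested (7.47, 7.42 and 6.82). Scaling by total L1 reads moved the median of all loci to 6.86 against brains and gave 41 higher and 13 lower short loci there. It moved the median to 7.28 against lungs, and TMM to 7.09 against livers.

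Groups did not overlap at 52 of the 53 short loci called against livers, at 48 of 50 against brains and at 74 of 79 against lungs (98.1%, 96.0% and 93.7%). Among all loci called the shares were 98.9%, 98.9% and 96.9%, and a locus that passed by its testis reads alone could hardly overlap. Of 52 short loci tested in all 3 comparisons, 40 were higher in testes in each (76.9%), beside 381 of 439 loci in all (86.8%). Of the 40, 24 were outside genes, 12 in a gene of the same strand and 4 in a gene of the other strand only, beside 217, 97 and 67 of the 381. No read was found at 29 of them in livers, brains or lungs of 7.6 mo (72.5%, beside 282 or 74.0% of the 381), and 24 had no read in any female library, beside 195 of the 381. The comparison with lungs rests on 2 lungs. With the mouse as replicate block, over the 2 mice that have both organs, it called 20 of 80 short loci higher and 3 lower, beside 165 and 17 of 692 loci. Without the testis of mouse 1209 it called 43 short loci higher and 6 lower, beside 409 and 37 of 484 loci, and without that of mouse 1303 it called 45 and 7, beside 411 and 34 of 492.

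The testis loci with the largest changes had few reads elsewhere. UID-5948 (chr3:44824843-44829280, plus strand, outside genes) had 688, 448 and 348 reads in 7.6 mo testes, covering 0.856 to 0.870 of the window. UID-6225 (chr3:7947413-7951477, minus strand, within 1700010I02Rik, a testis-named transcript of unknown role) had 395, 222 and 170. UID-13740 (chr11:27735305-27740008, plus strand, outside genes) had 306, 306 and 152. None of the 3 had a read in livers, brains and lungs of that age. Against a floor of 3 reads in the smallest library, the testis level of UID-6225 was at least 45.9-fold higher than in livers, 79.9-fold than in brains and 43.9-fold than in lungs. For UID-13740 the bounds were 45.0, 78.3 and 43.1. In testes of 1.9-3.6 mo UID-6225 had 130, 298 and 168 reads, and at 22.3 mo it had 143, 196 and 160. Per M mapped reads the 22.3 mo testes lay below those of 7.6 mo without overlap, but the difference of -0.82 on the log2 scale did not pass (SE 0.305, adjusted p = 0.229). UID-13740 had 274, 233 and 204 reads at 1.9-3.6 mo and 412, 302 and 238 at 22.3 mo, and its difference of 0.14 from 7.6 to 22.3 mo did not pass either (adjusted p = 0.929).

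UID-11874 (chr7:110508318-110513095, plus strand) lies opposite to Sbf2, a myotubularin-related gene, and had 274, 204 and 186 reads in 7.6 mo testes. These covered 0.502 to 0.560 of the window, less than at the other testis loci named. Testes exceeded livers at least 39.5-fold, brains at least 68.7-fold and lungs at least 37.8-fold. UID-831 (chr17:71324600-71329349, plus strand), within the long non-coding genes AC126942.1 and Gm26561, had 233, 160 and 104 reads in testes and 2, 8 and 0 in brains. Its log2 fold change against brains was 5.69 (SE 0.604, adjusted p = 1.11e-19). UID-13739 (chr11:38051720-38056261, plus strand, outside genes) had 228, 178 and 88 reads in testes, at least 50.1-fold more than in brains. None of these 3 loci had a read in any female library.

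The named short loci called lower in testes, beside UID-5687 and UID-11869 described above, are given for each organ. UID-13420 (chr4:96649478-96650143, minus strand, core 666 bp) lies within Cyp2j5, a cytochrome P450 of the liver. It had 127, 147 and 14 reads in 7.6 mo livers, 70, 46 and 124 at 1.9-3.6 mo and 72, 59 and 44 at 22.3 mo, and none in any other organ. Livers were at least 41.8-fold higher than testes. Its window overlaps that of another locus, so that any reads in the overlap are counted there too. UID-1784 (chr15:3516251-3520336, minus strand) lies within Ghr, the growth hormone receptor, and had 18, 16 and 18 reads in livers and 0 in testes, at least 8.16-fold lower. Its liver reads covered 0.0868 to 0.155 of the window, and 0 to 18 reads were found in female lungs of 8-8.7 mo. UID-10972 (next to the Rps25 copy) was lower by -1.07 (SE 0.491, adjusted p = 0.03), a call that was lost without the liver of mouse 1209 or 1303 or the testis of mouse 1303 and with the mouse as block (adjusted p = 0.141). UID-13958, a locus described with the lungs, was also called lower than in livers by -1.39 (SE 0.631, adjusted p = 0.0285), with 8, 14 and 6 reads against 22, 10 and 14. The groups overlapped, and the call was lost in 6 of 12 alternatives, with adjusted p up to 0.205.

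Against brains, UID-10778 (chr12:81351001-81351688, minus strand, core 688 bp, outside genes) had 215, 128 and 87 reads in brains and 6, 0 and 0 in testes. Brain reads covered 0.645 to 0.787 of its window, which overlaps that of another locus. In females it had 189, 48, 49 and 54 reads in 8-8.7 mo brains, 155 and 118 at 16.5 mo and 54, 24 and 51 at 2.2-3.2 mo, above the 2 to 17 reads of 8-8.7 mo lungs. UID-10214 (chr10:130513713-130514768, minus strand, core 1056 bp) had 12, 10 and 11 reads in male brains and 0 in testes, at least 2.93-fold lower there. Female brains of 8-8.7 mo had 2 to 8 reads, and no library outside the brain had more than 2.

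UID-11465, whose first bases are shown above, had 61, 66 and 27 reads in male brains, 13, 12 and 12 in testes, 0, 4 and 0 in livers, and 0 and 6 in lungs. Brains were above all testes, and the log2 fold change of testes was -1.87 (SE 0.612, adjusted p = 0.00252). In females, its reads were 107, 4, 30 and 18 in 8-8.7 mo brains and 157 and 76 at 16.5 mo, with coverage up to 0.986. UID-6899 (chr14:18591924-18596722, minus strand), within Ube2e2, a ubiquitin-conjugating enzyme, had 74, 58 and 50 reads in male brains and 19, 12 and 13 in testes. Its log2 fold change was -1.90 (SE 0.585, adjusted p = 0.00138).

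Against lungs, UID-13958 (chr11:71190786-71195330, minus strand) lies within Nlrp1b, a sensor of the inflammasome. Lungs of 7.6 mo males had 186 and 132 reads and testes 8, 14 and 6. The log2 fold change of testes was -4.95 (SE 0.629, adjusted p = 1.45e-13). UID-7770 (chr13:37404714-37409428, minus strand), opposite to Ly86, a gene of immune cells, had 14 and 12 reads in lungs and 6, 0 and 0 in testes (log2 fold change -3.54, adjusted p = 0.000175). UID-4646 (chr18:5669324-5673610, plus strand), within Zeb1, a transcriptional repressor, had 8 and 44 reads in lungs and 10, 6 and 4 in testes. Its call of -2.88 (adjusted p = 5.85e-05) was lost without the lung of mouse 1303 (adjusted p = 0.353). With the mouse as block neither UID-7770 nor UID-4646 passed (adjusted p = 0.422 and 0.385). UID-10972 was lower by -2.48 (adjusted p = 2.69e-05), UID-11251 by -2.15 (adjusted p = 3.75e-06) and UID-11869 by -1.69 (adjusted p = 0.00218). With the mouse as block UID-10972 and UID-11869 did not pass (adjusted p = 0.102 and 0.339), nor did UID-11869 with total L1 reads as scale (adjusted p = 0.265) or without the lung of mouse 1303 (adjusted p = 0.0638). The lung group holds 2 libraries, which limits all these values.

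Age of the testis was tested in both steps. From 1.9-3.6 to 7.6 mo, none of 89 short loci tested was called by edgeR, beside 0% higher and 0% lower of 756 loci. At an unadjusted p under 0.05 there were 9 short loci and 55 loci in all, and DESeq2 called 1 short locus lower and 3 loci in all. From 7.6 to 22.3 mo, none of 91 short loci was called, beside 0% higher and 0.262% lower of 762 loci. Here 10 short loci and 92 loci in all had an unadjusted p under 0.05, and DESeq2 called 1 short locus higher and 11 loci in all. The smallest adjusted p of a short locus was 0.378 in the first step and 0.13 in the second. Without the 7.6 mo testis of mouse 1305, the second step called 4 short loci lower among 39 lower loci.

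In females of 8-8.7 mo, ovaries were compared with brains, lungs and uteri. Against brains, 18 short loci were tested, 8 were higher in ovaries and 1 lower, that is 44.4% and 5.56%, beside 37.1% and 20.7% of 116 loci. These numbers turn with the scaling. By total L1 reads 3 short loci were higher and 4 lower, and among all loci 26 and 37 in place of 43 and 24, with a median log2 fold change of all loci of -0.09 in place of 0.78. Without the brain of mouse 1325, 9 of 22 short loci tested were higher and 2 lower, beside 69 and 26 of 159 loci. Against lungs, 7 of 20 were higher and 3 lower (35.0% and 15.0%, beside 26.2% and 15.0% of 107 loci). Against uteri, 4 of 19 were higher and none lower (21.1%, beside 25.2% higher and 3.94% lower of 127 loci), while TMM scaling gave 3 higher and 3 lower short loci and 27 higher and 16 lower loci in place of 32 and 5. Groups did not overlap at 6, 5 and 3 of these short loci (66.7%, 50.0% and 75.0% of those called, beside 86.6%, 70.5% and 94.6% of all loci called). The calls against uteri were all lost without the uterus of mouse 1338 or the ovary of mouse 1324, 1337 or 1338.

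UID-2917 and UID-13838 were short loci of the ovary. UID-2917 (chr6:78939163-78943900, plus strand, outside genes) had 140, 65, 115 and 126 reads in ovaries of 8-8.7 mo, 2, 10 and 28 in uteri and none in brains and lungs of that age. It was at least 35.5-fold higher than in brains and at least 27.9-fold higher than in lungs. The ovary reads covered 0.124 to 0.131 of the window, or about 812 bp on average, although no processed pseudogene of the same strand is annotated in it. Ovaries of 2.2-3.2 mo had 87, 97 and 81 reads and those of 16.5 mo 26 and 6, at 0.677 ± 0.534 (SD, n = 3) and 0.0718 ± 0.0606 RPKM (n = 2). The old ovaries were below all younger ones, a difference that was not tested.

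UID-13838 (chr11:31095142-31099571, minus strand), opposite to Asb3, a gene of the ankyrin repeat and SOCS box family, had 192, 99, 34 and 126 reads in ovaries of 8-8.7 mo and 25, 0 and 2 in uteri. It had none in brains and 0, 0, 2 and 0 in lungs, at least 35.2-fold and 27.7-fold lower than in ovaries. Here reads covered 0.472 to 0.929 of the window, unlike at UID-2917. At 16.5 mo the ovaries had 242 and 220 reads, or 1.12 RPKM against 0.562 ± 0.177 (n = 3) at 2.2-3.2 mo, the other direction from UID-2917. In males it had 2 reads or none per testis.

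Other short loci separated ovaries from 1 organ. UID-13958, the locus within Nlrp1b, had 47, 30, 30 and 30 reads in ovaries, 2, 20, 6 and 10 in brains and 146, 169, 100 and 90 in lungs. Ovaries lay between them, higher than brains by 1.92 (SE 0.665, adjusted p = 0.0205) and lower than lungs by -2.21 (SE 0.439, adjusted p = 0.000889). The difference from brains was lost in 5 of 14 alternatives, among them total L1 reads as scale (adjusted p = 0.142), TMM (adjusted p = 0.118) and leaving out the brain of mouse 1337 (adjusted p = 0.0752). UID-889 (chr17:22000066-22004811, plus strand), within the zinc finger gene Zfp943, had 119, 12, 54 and 53 reads in ovaries and 6, 4, 4 and 4 in lungs (log2 fold change 3.33, SE 0.708, adjusted p = 0.00157). UID-11271 (chr19:22942288-22946797, minus strand), opposite to Trpm3, a cation channel, had 14, 0, 6 and 6 in ovaries and 35, 34, 29 and 36 in lungs (log2 fold change -2.71, SE 0.742, adjusted p = 0.00837). UID-11469 (chr7:97235417-97236829, plus strand, core 1413 bp), within Gab2, a signalling adaptor, had 23, 8, 12 and 27 in ovaries and 2, 0 and 0 in uteri, at least 2.55-fold more.

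UID-10778 was lower in ovaries, with 29, 16, 30 and 14 reads, than in brains (log2 fold change -1.78, SE 0.585, adjusted p = 0.0149). This call was lost without the brain of mouse 1324, which had 189 reads (adjusted p = 0.0977). UID-10121 and UID-11251 were higher in ovaries than in brains by 1.32 (SE 0.353, adjusted p = 0.00405) and 1.34 (SE 0.352, adjusted p = 0.00361). With total L1 reads as scale neither passed (adjusted p = 0.225 and 0.199).

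**Figure D5:**
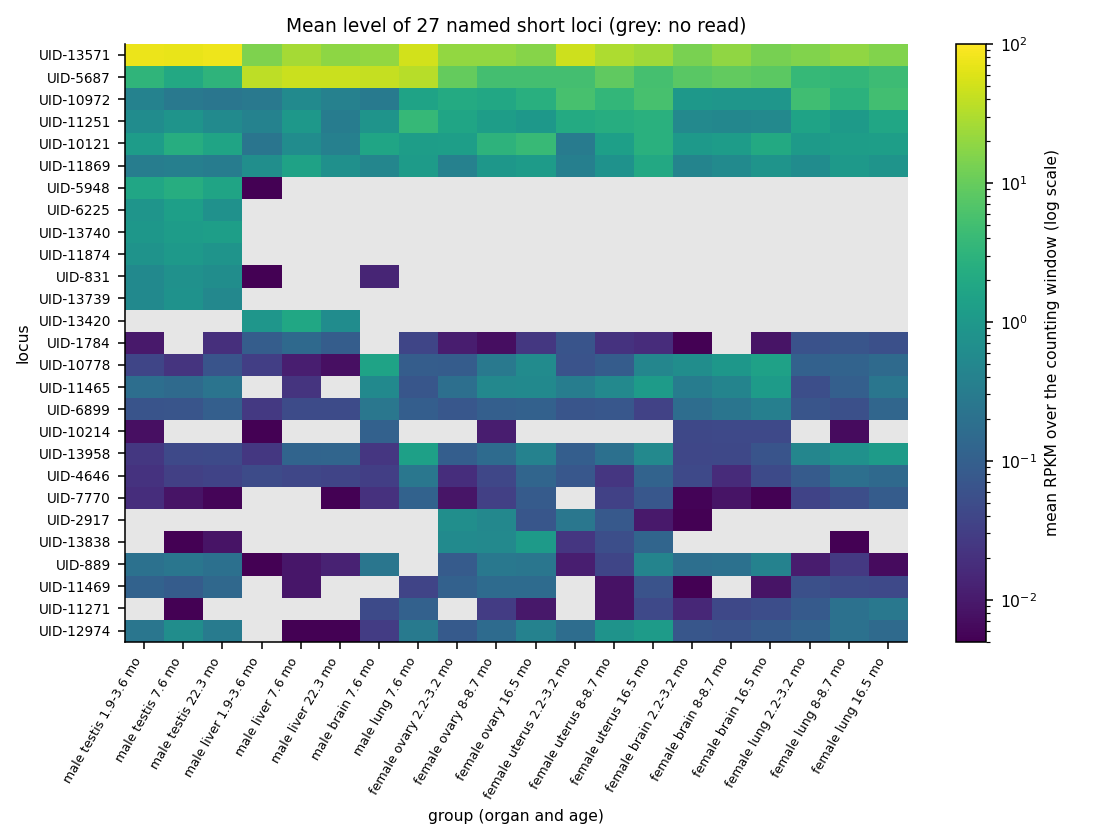
Mean RPKM over the counting window (colour, log scale) of named short loci in each organ and age group, with grey for no read. UID-5948, UID-6225, UID-13740, UID-11874, UID-831 and UID-13739 fill only the testis columns apart from traces in livers or brains, UID-13420 only the liver columns, and UID-2917 and UID-13838 mainly those of ovaries and uteri.

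Short loci also stood on the list of expressed L1s that the study curated by eye, among them UID-5948, UID-13740 and UID-11874, described above. UID-12974 (chr4:95111499-95116264, plus strand), within the antisense gene Junos, had 271, 12 and 174 reads in 8-8.7 mo uteri, 260, 115 and 61 in 7.6 mo testes and 17, 4 and 2 in male brains. UID-12039 (chr7:12662044-12666554, minus strand), with an exon of the vomeronasal receptor Vmn2r55, had reads in all brains, 44, 16 and 8 in males and 17, 32, 8 and 23 in females of 8-8.7 mo, and none in ovaries, lungs and livers of these ages. UID-8867 (chr1:4127486-4132197, minus strand), within Rp1, a microtubule protein of photoreceptors, had 63, 28 and 16 reads in 7.6 mo testes and 40, 0 and 0 in uteri, so that 1 uterus carried the value. UID-6765 (chr3:18405252-18409908, plus strand), opposite to Gm30667, had 24, 4 and 8 reads in uteri and 10, 10, 2 and 8 in female lungs. UID-1581, UID-2352, UID-12104 and UID-7585 did not exceed 22 reads in any library.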

How the data were processed

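Cytoplasmic polyadenylated RNA of mouse organs was sequenced by the authors with strand-specific paired-end reads. The authors aligned reads to mm10 with Bowtie, keeping reads with a single best place, removed duplicates, separated strands and counted reads per L1 window with bedtools, and the deposited columns used here are these counts, in the orientation of the L1, and the fraction of the window covered, as the authors deposited it. L1 positions came from L1Base 2. The names and list of loci were taken from the deposited files, and mapped reads per library were recovered from the supplementary list of the study, which was used for nothing else but the marking of listed loci. The column whose values fitted a library bore another mouse number for the livers of mice 829, 830, 831 and 1110, the testes of 830, 831 and 1110, and the brain and lung of 1209. The value of the 1110 liver rests on 1 locus, and the uteri of mice 1534 and 1324 came out equal at 26.75 M. Mapped reads ranged from 8.45 to 51.39 M, and floors cover counting error alone (floor 3 reads in the smallest library of a group).

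Short loci had a core under 4800 bp. Differences were tested with edgeR 4.0.16 (quasi-likelihood, R 4.3.3) on counts with mapped reads as library size, over all loci that reached 10 reads in a number of libraries equal to the smaller group, at a Benjamini-Hochberg adjusted p of 0.05 over all loci tested. The scripts were tested on simulated data. Alternatives were DESeq2 1.42.0, total L1 reads and TMM as scale, no filter, the mouse as block and leaving out each library. The fit of the same mice without a block, mapped reads joined by the mouse number heading the column at 22.3 mo, the mean of UID-5687 without the brain of mouse 1325, and sums without UID-13571 and UID-5687 were chosen after the data had been seen. Pseudogenes were compared with GENCODE M21 transcripts by BLAST 2.17.0 (E-value limit 1e-20). Tables were made with Python 3.11.15, pandas 2.3.3, numpy 2.4.6 and scipy 1.17.1, and figures with matplotlib 3.10.9. Same-numbered organs come from the same mouse by the labels, and deviations of such pairs from their group means correlated at -0.048 to 0.361. Named loci were, by rule, the 3 short loci with the highest level per organ, up to 5 per direction and comparison with the largest called change and groups apart, the 3 highest listed loci per organ, the 3 shortest and those beside the length limit. Members and lists were chosen with earlier results of these data known. Libraries of 12.8 mo, with another window, entered no test.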

Additional observations from a re-analysis of the deposited data

Results flagged for a closer look

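In 53 values of groups with 4 libraries, the highest or lowest library was set against the gap to its neighbour, a rule that chance meets in about 1 of 20 groups. It marked 5 values. The summed level of short loci in 8-8.7 mo female brains was 306 RPM (305.512) in mouse 1325 against 175 to 196 RPM in the others, and UID-11251 had 0.564 RPKM in the same brain against 0.447 to 0.463. That library had 4412 reads at UID-5687, where the others had 998 to 1558, and 14354 plus-strand against 8847 minus-strand L1 reads. The file of its plus strand lacks the name tag for duplicate removal that the others carry, and the part of this in the values was not tested. UID-10778 had 2.00 RPKM (1.9986) in the brain of mouse 1324 against 0.520 to 0.686 in the other brains. UID-13838 had 0.0118 RPKM, 2 reads, in the lung of mouse 1337 and none in the other lungs, and UID-889 had 0.0334 RPKM in the lung of mouse 1324 against 0.0225 to 0.024.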

How the results depend on the processing

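Of the values recomputed for the main counts and levels, 125 stayed close to the value given and 56 moved. Part of the 56 are quantities of another kind than the value given. These are loci counted at a higher read limit, sums as a percentage of L1 reads, and sums without the loci with most reads. Such values differ by definition, so they do not show whether the results are stable. The cause of the other moves was not tested. Without a filter on reads, testes against livers called 123 of 507 short loci, beside 1059 higher and 42 lower of 5215 loci. Testes against brains called 137 of 555 short loci, beside 1152 higher and 104 lower of 5657 loci. Ovaries called 24 of 269 short loci against brains (beside 113 higher and 86 lower of 2721 loci). They called 17 of 207 against lungs (beside 65 and 19 of 2139) and 1 of 200 against uteri (beside 20 and 10 of 2065). DESeq2 gave 1 call in each step of testis age. For ovaries against uteri it called 8 of 19 short loci, beside 40 higher and 13 lower of 127 loci. With the replicate block (paired by mouse), testes against lungs called 23 of 80 short loci, beside 165 higher and 17 lower of 692 loci. Ovaries against uteri called 7 of 17 with the block, beside 22 higher and 9 lower of 107 loci. The same mice without a block gave 0 short loci for the latter, beside 8 higher and 4 lower loci. UID-13571 reversed between testes and livers under TMM (log2 fold change -0.0423, adjusted p = 0.899). The block changed the call of no other main comparison by over 1.5 times.

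Leaving out each library gave 53 to 81 calls for testes against livers, 55 to 79 against brains, 49 to 82 against lungs, 0 to 0 for testes of 1.9-3.6 against 7.6 mo, 0 to 4 for 7.6 against 22.3 mo, and for ovaries 9 to 13 against brains, 8 to 11 against lungs and 0 to 12 against uteri. The libraries that moved a count by over 1.5 times are given with the calls and the short loci tested. They were livers 1303 and 1305 (81 of 86 each), brain 1305 (79 of 94), testes 1305 (78 of 90), 1209 (49 of 57) and 1303 (52 of 59), and uteri 1324 (12 of 26) and 1325 (7 of 28). With 0 calls for ovaries against uteri they were uterus 1338 (of 26) and ovaries 1324, 1337 and 1338 (of 17 each). With all libraries 53 of 55 short loci were called against livers, 50 of 58 against brains, 79 of 86 against lungs and 4 of 19 for ovaries against uteri. The number tested changes with the libraries left in, so the part of single mice in these moves was not tested. Without the 7.6 mo testis 1305 the second age step gave 4 calls.

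Numbers of short loci with reads, counted at more than 10 reads, were 80.0 in testes, 10.0 in livers, 19.0 in male brains, 13.5 in male lungs, 21.5 in ovaries, 15.0 in uteri, 15.5 in female brains and 14.0 in female lungs. As a percentage of all L1 reads, their sums were 29.1, 30.3, 49.9, 10.9, 27.1, 23.5, 42.2 and 21.6 in the same order. Without the short locus with most reads in the organ, the sums were 175, 200 (199.97), 172, 269, 104, 116, 91.3 and 73.1 RPM, and without UID-13571 and UID-5687 they were 164, 31.5, 42.6, 65.6, 73.1, 63.1, 36.1 and 52.1. Leaving out a library moved the numbers with reads to 278.5-335, 24-28, 70.5-89.5, 32-34, 83.7-99.3, 35-55.5, 71-86 and 50-54.7, and the sums to 623-683, 460-485, 412-437, 567-622, 228-245, 269-331, 183-226 and 192-199 RPM.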
